A study of Homo sapiens with 10 samples.

Results

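The comparison described here is that of Panc1 cells transduced with the A347S mutant of KLF11 against Panc1 cells transduced with wild type KLF11, which are called A347S cells and KLF11 cells. It holds 4 arrays, 2 for each construct, of the 10 arrays in the series. Members are all 20961 transcript clusters with a gene symbol, of 28869 on the Human Gene 1.0 ST array. A transcript cluster is a set of probes that the array treats as 1 transcript unit, and 1732 of the clusters carry several gene symbols. Among the 19229 with 1 symbol, the brightest stands for a gene that had several, which leaves 18377 genes.

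KLF11 is a zinc finger transcription factor of the Krüppel-like family that binds GC-rich promoter elements and can activate or repress them through the co-factors it recruits. Several regions of the protein serve as docking sites. An N-terminal repressor domain binds Sin3, which brings histone deacetylases. A short motif binds heterochromatin protein 1 (HP1), which brings histone H3 lysine 9 methyltransferases. The A347S substitution, alanine to serine, lies in a proline-rich stretch and is a variant linked to MODY7, a monogenic form of diabetes. In the study it serves to uncouple KLF11 from WD40 proteins, the β-propeller family to which the β subunits of heterotrimeric G proteins belong. The comparison with wild type KLF11 asks which transcripts differ in level between mutant and wild type. Whether a difference comes from the loss of these partners was not tested.

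Panc1 is an established epithelial line from a human pancreatic carcinoma. All groups received an adenovirus of the Ad5CMV backbone at a multiplicity of infection of 150 and were harvested at 48 h. The groups were A347S, KLF11 with the wild type sequence, Δ486, which lacks HP1 coupling, EAPP, which lacks Sin3 coupling, and the empty vector (EV), all but EV carrying a His-Xpress tag. Each group was made of 1 RNA pool from biological triplicates run on 2 arrays, although the titles call the arrays biological replicates. Under that description every error below is a spread between arrays, and the construct and its RNA pool cannot be told apart. The constructs were added to cells that still carry their own KLF11 gene.

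Expression values are log2 levels after Robust Multiarray Analysis (RMA), so a difference of 1 is a doubling. Array medians ran from 6.81 to 6.83 across the 4 arrays. Correlations across clusters were 0.9968 between the A347S arrays, 0.9969 between the KLF11 arrays and 0.9947 to 0.9962 between arrays of different constructs. Of 8 epithelial and duct markers the keratin KRT18 was the highest, at 12.87 and 12.97 in A347S cells, against 12.89 and 13.02 in KLF11 cells. The list was not uniformly high. KRT7 read 6.37 and 6.40 in A347S cells, against 6.45 and 6.52 in KLF11 cells. CDH1 was the lowest, at 4.94 and 4.71 against 4.76 and 4.89. KRT19 of this list was lower in A347S cells by -0.52 (unadjusted p = 0.00316). None of the measured acinar, endocrine, endothelial or erythroid markers passed 6.31 in A347S cells or 6.37 in KLF11 cells. Among 6 fibroblast genes the highest read 7.95 in A347S cells and 8.13 in KLF11 cells, and among 5 leukocyte genes CD68, a lysosomal protein, was the highest, at 9.54 and 9.59 in A347S cells and 9.62 and 9.59 in KLF11 cells, with the defining leukocyte gene PTPRC at 3.62 and 3.65 in A347S cells and 3.75 and 3.55 in KLF11 cells. In each of these lists at most 1 gene differed at an unadjusted p under 0.05.

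The transcript of KLF11 itself differed between the constructs by less than its error. KLF11 read 8.85 and 8.88 in A347S cells, against 8.82 and 8.85 in KLF11 cells, and 8.37 and 7.75 in EV cells. The difference of A347S from wild type was 0.03 (SE 0.16, unadjusted p = 0.846, adjusted p = 0.949), with a 95% confidence interval of -0.33 to 0.39. The value of the cluster does not tell the endogenous from the added transcript or the mutant from the wild type, so it does not check which form was expressed. For the tagged proteins, the study reports a Western blot with similar overexpression of wild type and mutants.

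At a Benjamini-Hochberg adjusted p under 0.05 with a fold change of at least 1.5, limma called 0 of 20961 clusters (0%) between A347S and KLF11 cells. The study set each construct against EV, and used no false discovery rate for EAPP. Its 1.5 is given as a log2 fold change in its methods and as a fold change in its results. The smallest adjusted p was 0.063, and 9 clusters (0.0429%) were under 0.10. At an unadjusted p under 0.05, 3017 clusters (14.4%) were picked, 1274 higher in A347S cells (6.08%) and 1743 lower (8.32%), and under 0.01 these were 340 (1.62%) and 589 (2.81%). Without A347S replicate 2, 801 were higher and 843 lower at an unadjusted p under 0.05, and without KLF11 replicate 1 the lower ones numbered 1059. Of those under 0.05, 30 higher (0.143%) and 8 lower clusters (0.0382%) also differed at least 1.5-fold. The counts with the 1.5-fold were 56 higher and 48 lower without A347S replicate 1, 52 and 32 without KLF11 replicate 2, and 48 and 13 without KLF11 replicate 1. Both A347S arrays stood above both KLF11 arrays in 23.7% of clusters and below them in 24%. A difference above 0 was found in 51.8% of clusters. The differences were small for most genes, with a median of 0.007 and a median standard error of 0.095, so that a typical 95% confidence interval reached 0.214 to each side.

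The number of calls depended on how the variance was moderated. When limma let the prior variance follow the intensity and treated outlying variances robustly, 272 clusters (1.3%) passed an adjusted p of 0.05, 65 higher (0.31%) and 207 lower (0.988%) in A347S cells. Of them, 23 (0.11%) also differed at least 1.5-fold, 16 of them higher (0.0763%). Without clusters whose mean stayed under 6 in every group, 6 passed with the 1.5-fold, among them ACADSB (adjusted p = 0.026), IDH1 (0.0306), SPTY2D1 and ALDH6A1 (both 0.0376) and CIB1 (0.0456). Gene values below are differences with their errors from the fit of all clusters, in which none was called.

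The 15 largest positive and 15 largest negative differences were taken among genes with an unadjusted p under 0.05, arrays that did not overlap and a mean of at least 6 in A347S or KLF11 cells. The positive ones ran from 0.60 to 1.13 and the negative ones from -0.79 to -0.52. MARK2P21 and OR2B6 reached that mean in A347S cells alone, and ATXN7L3 in KLF11 cells alone, so their places rest on the higher group. In 12 of the 15 positive genes the arrays of both constructs lay above EV, as in 19.8% of all 18377 genes. In 13 of the 15 negative genes both constructs lay below EV, as in 25.6% of all genes. These positions are descriptions of genes picked for the order of the constructs, which also fixes that A347S is the farther from EV in them.

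**Figure D1:**
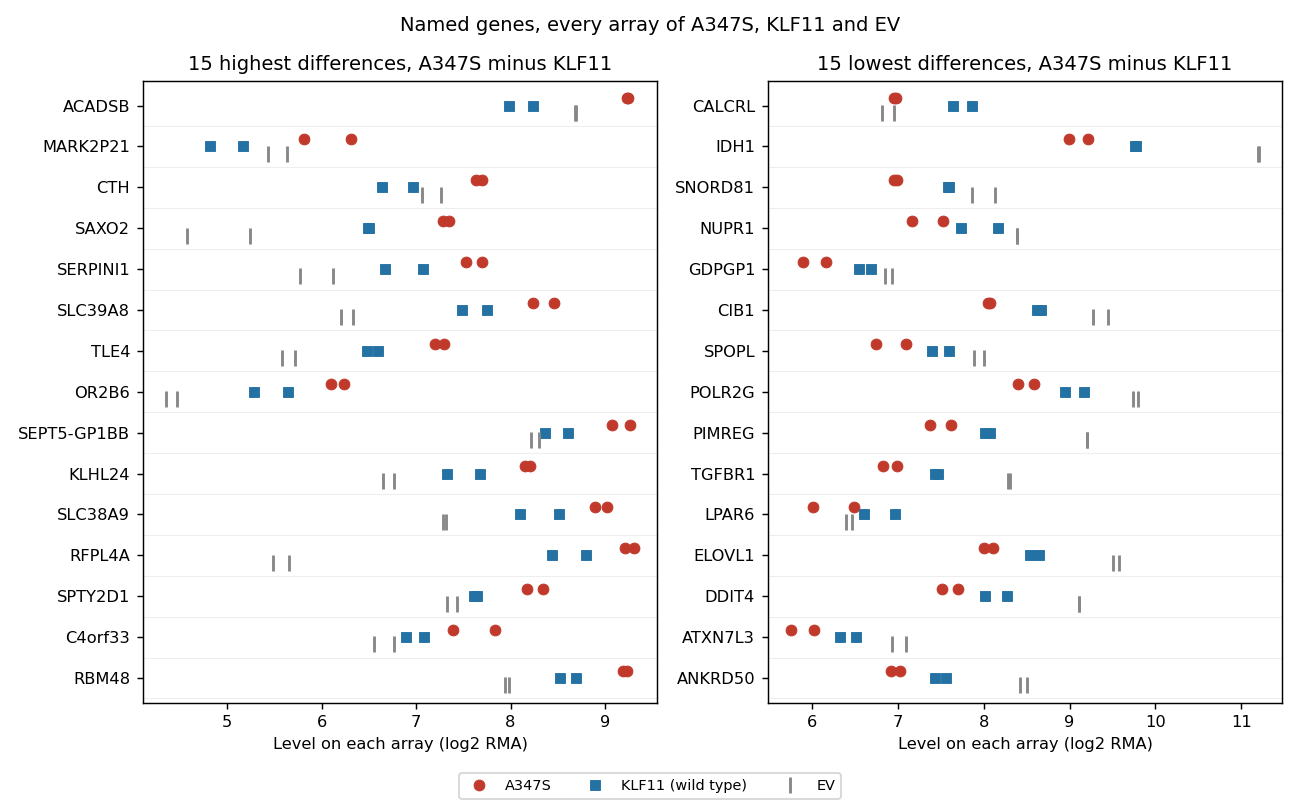
Levels (log2 RMA, x axis) of the 15 genes with the highest and the 15 with the lowest difference between A347S and KLF11 cells, with 1 point per array for A347S (circles), KLF11 (squares) and EV (bars). In every gene the A347S and KLF11 arrays do not overlap, which the choice of genes required, and ACADSB, MARK2P21 and CTH have KLF11 left of EV and A347S right of it.

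ACADSB, the short/branched-chain acyl-CoA dehydrogenase of isoleucine breakdown, had the largest difference of the named genes. A cluster annotated to several genes, and so not named, had a larger one of 1.33 (adjusted p = 0.000728 with the intensity trend and robust moderation). ACADSB read 9.25 and 9.23 in A347S cells, against 8.23 and 7.98 in KLF11 cells. The EV arrays, at 8.68 and 8.70, fell between the constructs. The A347S arrays were nearly equal, and the lower of them exceeded the higher KLF11 array by about 1 log2 unit. The difference was 1.13 (SE 0.13, unadjusted p = 6.53e-06, adjusted p = 0.063), or 2.19-fold, and the adjusted p was 0.000728 with the intensity trend and 0.0236 without either Δ486 array. Against EV, KLF11 cells were lower by a log2 change of -0.58 (adjusted p = 0.0126) and A347S cells higher by 0.55 (adjusted p = 0.00925). Δ486 cells, at 8.98 and 9.38, and EAPP cells, at 8.96 and 8.85, also stood above EV. KLF11 was the 1 construct of the 4 with ACADSB below EV.

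CTH, cystathionine gamma-lyase of the transsulfuration pathway to cysteine, had a like arrangement. It read 7.64 and 7.69 in A347S cells, against 6.96 and 6.63 in KLF11 cells, with 7.06 and 7.26 on the EV arrays. The difference was 0.87 (SE 0.17, unadjusted p = 0.000621, adjusted p = 0.167). Neither construct differed from EV past the threshold, with adjusted p of 0.0565 for A347S and 0.201 for KLF11. MARK2P21, a transcribed pseudogene related to the kinase MARK2, differed by 1.06 (SE 0.25, unadjusted p = 0.00203, adjusted p = 0.185), and its probes may read other copies of the family.

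ALDH6A1, methylmalonate semialdehyde dehydrogenase of valine and pyrimidine breakdown, was dimmer than the mean of 6 required above in the 2 constructs and was named because it passed with the intensity trend. It read 5.56 and 5.74 in A347S cells, against 5.10 and 4.90 in KLF11 cells, and 5.87 and 5.75 in EV cells. EAPP cells, at 6.58 and 6.68, were the only group with a mean of at least 6. Its place in the fit without dim clusters therefore rests on a group outside this comparison. KLF11 cells were below EV by a log2 change of -0.81 (adjusted p = 0.000836), and A347S cells stood at -0.17 from EV (adjusted p = 0.261). The difference between the constructs was 0.65 (SE 0.10, unadjusted p = 7.47e-05, adjusted p = 0.109). CXCR4, a chemokine receptor, was likewise dim and read 5.83 and 5.96 in A347S cells, against 5.21 and 5.01 in KLF11 cells, with 4.80 and 4.73 in EV cells. Its difference of 0.78 (SE 0.10, unadjusted p = 1.2e-05, adjusted p = 0.063) went with levels above EV in both constructs.

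A few more genes passed with the intensity trend and robust moderation, and SPACA4 also with a replicate block (adjusted p = 0.024). SPACA4, a sperm acrosome protein, was dim and read 4.97 and 5.15 in A347S cells, against 4.02 and 4.22 in KLF11 cells, with 4.45 and 4.53 in EV cells, a difference of 0.94 (SE 0.12, unadjusted p = 1.61e-05, adjusted p = 0.063). STRIP2, a subunit of the STRIPAK phosphatase complex, read 7.20 and 7.25 in A347S cells, against 6.54 and 6.72 in KLF11 cells and differed by 0.59 (SE 0.13, unadjusted p = 0.00105, adjusted p = 0.169). PSG3, a pregnancy-specific glycoprotein of a multigene family whose copies may share probes, and the antisense gene SLC67A1-AS were also dim, with differences of 0.61 and 0.64. CCDC112, a coiled-coil protein, was the dim gene on the other side, at -0.71 (SE 0.15, unadjusted p = 0.000935).

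**Figure D2:**
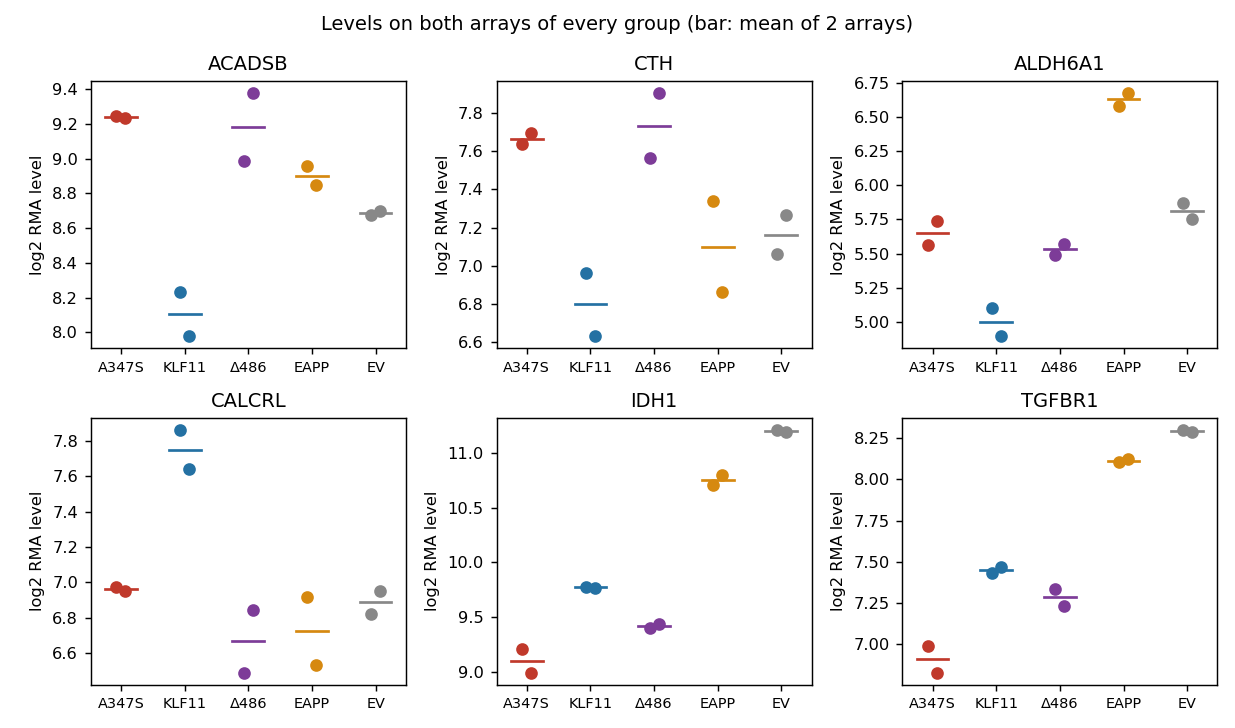
Levels (log2 RMA, y axis) of ACADSB, CTH, ALDH6A1, CALCRL, IDH1 and TGFBR1 on both arrays of each group, with a bar at the mean. KLF11 stands below EV in ACADSB, CTH and ALDH6A1 and above it in CALCRL, while IDH1 and TGFBR1 descend from EV through KLF11 to A347S.

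To show what the promoters of genes on these different courses look like, the 250 bases before the outermost RefSeq start are printed (GRCh38.p14, 5′ to 3′ in the direction of transcription) for CTH, whose level with wild type KLF11 was below EV, for RFPL4A, the named gene farthest above EV with both constructs, and for IDH1, ELOVL1 and CALCRL among the negative differences. Capitals mark CCCCGC and CCCCAC, the core forms of a KLF11 element, searched on both strands, where they appear as GCGGGG and GTGGGG. Words that overlap were each counted. At least 1 of them was found in 53.4% of 27305 such stretches, 1 for each gene with an entry.
CTH, chr1:70411018-70411267, plus strand: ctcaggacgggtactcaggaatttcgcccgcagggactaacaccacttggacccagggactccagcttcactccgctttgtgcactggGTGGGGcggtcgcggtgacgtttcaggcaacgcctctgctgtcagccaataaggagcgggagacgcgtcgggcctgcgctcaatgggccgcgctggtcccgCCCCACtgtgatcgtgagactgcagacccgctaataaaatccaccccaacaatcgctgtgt
RFPL4A, chr19:55758847-55759096, plus strand: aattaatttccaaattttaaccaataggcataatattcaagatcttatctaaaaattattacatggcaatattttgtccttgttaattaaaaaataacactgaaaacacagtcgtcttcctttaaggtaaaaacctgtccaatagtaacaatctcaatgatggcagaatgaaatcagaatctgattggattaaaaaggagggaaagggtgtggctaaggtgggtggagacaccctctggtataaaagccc
IDH1, chr2:208255072-208255321, minus strand: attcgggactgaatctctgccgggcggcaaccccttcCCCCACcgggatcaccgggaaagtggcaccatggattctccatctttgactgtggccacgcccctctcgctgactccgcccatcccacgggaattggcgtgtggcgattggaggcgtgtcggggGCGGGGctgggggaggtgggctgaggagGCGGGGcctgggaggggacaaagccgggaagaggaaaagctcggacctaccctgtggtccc
ELOVL1, chr1:43368012-43368261, minus strand: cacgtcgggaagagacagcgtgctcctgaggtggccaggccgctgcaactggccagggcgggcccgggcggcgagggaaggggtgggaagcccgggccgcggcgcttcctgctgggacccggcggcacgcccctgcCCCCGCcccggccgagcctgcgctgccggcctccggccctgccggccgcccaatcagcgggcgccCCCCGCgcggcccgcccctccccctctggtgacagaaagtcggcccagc
CALCRL, chr2:187448253-187448502, minus strand: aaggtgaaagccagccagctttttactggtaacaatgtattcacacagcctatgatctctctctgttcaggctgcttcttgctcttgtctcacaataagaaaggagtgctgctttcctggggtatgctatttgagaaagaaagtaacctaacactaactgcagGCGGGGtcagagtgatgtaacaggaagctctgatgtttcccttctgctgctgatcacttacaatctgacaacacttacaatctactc
ELOVL1 had 2 words of the CCCCGC form, CTH had 2 of the CCCCAC form, IDH1 had 3 of both forms together, CALCRL had 1 and RFPL4A had 0. A word in these windows is a description of the sequence only, since binding was not analysed here, and most promoters hold one.

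Among the positive differences with both constructs above EV, SLC39A8, a zinc and manganese transporter, read 8.46 and 8.24 in A347S cells, against 7.75 and 7.48 in KLF11 cells, and 6.21 and 6.33 in EV cells. Each A347S array lay above each KLF11 array and all of them above EV. The difference was 0.73 (SE 0.12, unadjusted p = 0.000183, adjusted p = 0.128). TLE4, a Groucho-family corepressor with WD40 repeats, read 7.20 and 7.30 in A347S cells, against 6.59 and 6.48 in KLF11 cells, with 5.58 and 5.72 on the EV arrays. It differed by 0.71 (SE 0.14, unadjusted p = 0.000674, adjusted p = 0.167) between the constructs.

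SPTY2D1, a histone chaperone, had the smallest p of this group. It read 8.35 and 8.18 in A347S cells, against 7.64 and 7.61 in KLF11 cells, and 7.43 and 7.32 in EV cells. Its difference was 0.63 (SE 0.09, unadjusted p = 4.04e-05, adjusted p = 0.099). A347S cells were above EV by 0.88 (adjusted p = 0.000113), and KLF11 cells by 0.25 (adjusted p = 0.0885). SERPINI1, the serpin neuroserpin, differed by 0.74 (SE 0.18, unadjusted p = 0.00263), and KLHL24, a ubiquitin ligase adaptor, by 0.67 (SE 0.16, unadjusted p = 0.00229). SLC38A9, the lysosomal arginine sensor of mTORC1, differed by 0.65 (SE 0.16, unadjusted p = 0.0023), and RBM48, a subunit of the minor spliceosome, by 0.60 (SE 0.15, unadjusted p = 0.00218). In these 4 genes both constructs stood above EV, A347S by 1.25 to 1.67 and KLF11 by 0.64 to 1.01.

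RFPL4A, a ret finger protein-like gene of early embryos, was the named gene farthest above EV with both constructs, with EV arrays at 5.49 and 5.65. It read 9.21 and 9.31 in A347S cells, against 8.80 and 8.44 in KLF11 cells. The change against EV was 3.69 in A347S cells and 3.05 in KLF11 cells, and the difference between the constructs was 0.64 (SE 0.19, unadjusted p = 0.00806, adjusted p = 0.215). A near-identical copy of this gene may share its probes. SAXO2, which binds axonemal microtubules, read 7.35 and 7.29 in A347S cells, against 6.49 and 6.50 in KLF11 cells, and the difference was 0.82 (SE 0.21, unadjusted p = 0.00347, adjusted p = 0.189). OR2B6, an olfactory receptor gene, C4orf33 and the readthrough transcript SEPT5-GP1BB had differences of 0.70, 0.62 and 0.68. The last overlaps SEPTIN5 and GP1BB and cannot be told from them.

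Of the negative differences, that of IDH1, the cytosolic isocitrate dehydrogenase that makes NADPH, had the smallest p. It read 9.21 and 8.99 in A347S cells, against 9.78 and 9.77 in KLF11 cells. The EV arrays stood far above both constructs, at 11.21 and 11.19. The difference between A347S and KLF11 was -0.67 (SE 0.08, unadjusted p = 1.8e-05, adjusted p = 0.063), or 1.59-fold lower in A347S cells. Against EV the change was -2.10 in A347S cells and -1.43 in KLF11 cells. The A347S arrays lay below the Δ486 arrays, at 9.40 and 9.44, and far below the EAPP arrays, at 10.70 and 10.80.

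ELOVL1, the elongase of very long chain fatty acids, read 8.11 and 8.0 in A347S cells, against 8.64 and 8.54 in KLF11 cells, and 9.58 and 9.51 in EV cells. Its difference was -0.54 (SE 0.07, unadjusted p = 3.74e-05, adjusted p = 0.099). TGFBR1, the type I receptor of TGF-β, read 6.99 and 6.82 in A347S cells, against 7.43 and 7.47 in KLF11 cells, and 8.30 and 8.29 in EV cells, with a difference of -0.54 (SE 0.08, unadjusted p = 5.32e-05, adjusted p = 0.109). DDIT4, an inhibitor of mTORC1 that rises with hypoxia and stress in many cells, read 7.70 and 7.52 in A347S cells, against 8.27 and 8.02 in KLF11 cells, and 9.11 and 9.11 in EV cells. It differed by -0.53 (SE 0.10, unadjusted p = 0.000323, adjusted p = 0.149). In each of these genes the arrays fell in 3 steps without overlap, A347S lowest and EV highest.

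POLR2G, a subunit of RNA polymerase II, differed by -0.57 (SE 0.09, unadjusted p = 0.000135), and PIMREG, a mitotic regulator, by -0.55 (SE 0.10, unadjusted p = 0.000233). ANKRD50, an endosome recycling protein, ATXN7L3, a subunit of the SAGA deubiquitinase module, and SPOPL, a ubiquitin ligase adaptor, had differences of -0.52, -0.53 and -0.58. NUPR1, a stress-induced nuclear protein, differed by -0.60 (SE 0.15, unadjusted p = 0.00274). CIB1, a calcium and integrin binding protein, and GDPGP1, a GDP-glucose phosphorylase, both had a difference of -0.59. They overlap in the genome, so their probes may not be independent. SNORD81, a small nucleolar RNA in an intron of GAS5, had a difference of -0.62 and cannot be told from its host.

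CALCRL, the receptor of calcitonin gene-related peptide and adrenomedullin, had the largest negative difference and was the 1 gene of these 15 with both constructs above EV. It read 6.98 and 6.95 in A347S cells, against 7.86 and 7.64 in KLF11 cells, and 6.82 and 6.95 in EV cells. KLF11 cells were above EV by 0.86 (adjusted p = 0.00415), whereas A347S cells differed from EV by 0.08 (adjusted p = 0.754). The difference between the constructs was -0.79 (SE 0.15, unadjusted p = 0.000408, adjusted p = 0.166). Δ486 cells, at 6.49 and 6.85, and EAPP cells, at 6.92 and 6.54, also stood below KLF11. LPAR6, a lysophosphatidic acid receptor, had a smaller difference of -0.54 (SE 0.16, unadjusted p = 0.00706) and EV arrays at 6.47 and 6.39. It overlaps RB1 in the genome.

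The size of the difference followed the response of the same clusters to Δ486, which was measured on arrays that this comparison does not use. In Δ486 against EV, 499 clusters rose (2.38%) and 677 fell (3.23%). Over the 499, the median difference between A347S and KLF11 was 0.21, with 466 differences above 0. At an unadjusted p under 0.05, 217 (43.5%) were higher in A347S cells and 1 was lower. Over the 677 that fell in Δ486 cells, the median difference was -0.27, with 16 above 0, and 440 (65%) were lower in A347S cells and 2 higher. In the 19785 clusters not called in Δ486, the median was 0.0089, and 5.33% were higher and 6.58% lower.

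The difference was graded by the Δ486 change. In the 62 clusters that Δ486 lowered by more than 1 log2 unit the median difference was -0.37, and in the 124 clusters that it raised by more than 1 it was 0.34. Between them the medians of the 6 other classes ran in order, -0.26, -0.17, -0.04, 0.05, 0.11 and 0.19. After cyclic loess scaling of the arrays the outer medians were -0.37 and 0.34. Clusters that EAPP moved against EV, at an unadjusted p under 0.05 and 1.5-fold, gave 23 higher ones with a median difference of 0.22 and 15 lower ones with -0.23. The difference was above 0 in 16 of the 23 and in 3 of the 15.

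The Δ486 calls and these counts share 1 estimate of the variance of each cluster, made from all arrays. With the variance taken from the 4 arrays of A347S and KLF11 alone, 248 of the risen clusters were higher and 427 of the fallen ones lower. Leaving out single arrays moved these counts. The risen clusters that were higher numbered 89 without KLF11 replicate 2 and 126 without A347S replicate 2, and the fallen ones that were lower numbered 233 without A347S replicate 2. The medians stayed between 0.17 and 0.27 for the risen and between -0.33 and -0.20 for the fallen clusters.

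**Figure D3:**
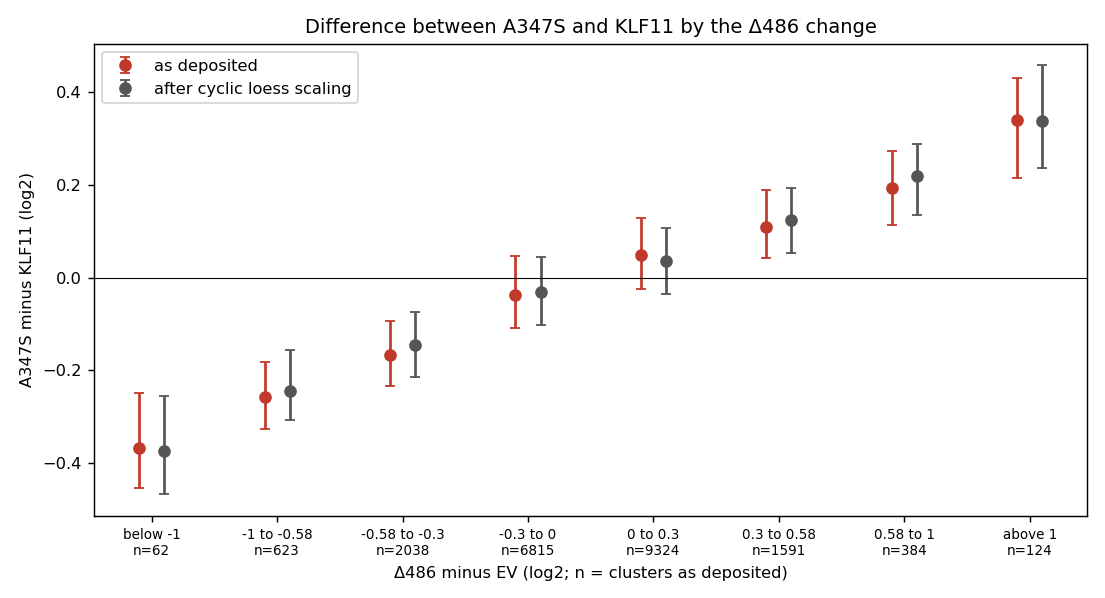
Median and quartiles of A347S minus KLF11 (log2, y axis) for clusters in 8 classes of Δ486 minus EV (x axis), as deposited and after cyclic loess scaling. The medians run from -0.37 in the class below -1 to 0.34 in the class above 1, and change sign between the classes on either side of 0.

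The single genes that Δ486 moved most are given with their differences. Of the 8 largest rises, 7 were higher in A347S than in KLF11 cells, 5 of them at an unadjusted p under 0.05, and of the 8 largest falls all 8 were lower, 6 of them at that p. In all of these genes wild type KLF11 also stood on the same side of EV as Δ486, as in RFPL4A at 3.05 and KYAT3 at -1.51. Their response is therefore not particular to the Δ486 mutant. ROPN1L, a sperm tail protein of the radial spoke family, read 8.38 and 8.55 in A347S cells, against 8.01 and 7.84 in KLF11 cells, and 5.81 and 6.10 in EV cells, a difference of 0.54 (SE 0.11, unadjusted p = 0.000861). RADX, which acts at replication forks, differed by 0.56 (SE 0.14, unadjusted p = 0.00287), and DNAJB4, a heat shock protein, by 0.36 (SE 0.13, unadjusted p = 0.0206). KIAA0825 differed by 0.18 (SE 0.13, unadjusted p = 0.203), LMBRD2 by 0.37 (SE 0.20, unadjusted p = 0.0873) and the pseudogene ZNF204P by -0.13 (SE 0.27, unadjusted p = 0.64).

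Among the falls, KYAT3, a kynurenine aminotransferase, read 6.58 and 6.55 in A347S cells, against 7.02 and 6.84 in KLF11 cells, and 8.5 and 8.38 in EV cells. Its difference was -0.36 (SE 0.08, unadjusted p = 0.00171). SFXN2, a mitochondrial sideroflexin, differed by -0.51 (SE 0.11, unadjusted p = 0.000989), TPMT, thiopurine methyltransferase, by -0.47 (SE 0.13, unadjusted p = 0.0039), and CDK5RAP3 by -0.44 (SE 0.11, unadjusted p = 0.00315). OARD1, which removes ADP-ribose from proteins, differed by -0.29 (SE 0.08, unadjusted p = 0.00492). EPB41, a membrane skeleton protein, and ADI1, of the methionine salvage pathway, did not pass that p, at -0.16 (SE 0.10, unadjusted p = 0.146) and -0.14 (SE 0.10, unadjusted p = 0.187).

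Gene lists were described by their counts at an unadjusted p under 0.05 and their median, to be read against all 18377 genes, of which 6.24% were higher and 8.67% lower in A347S cells with a median of 0.0056. The difference also depended on the mean level of a cluster. As deposited, its median was 0.07 for clusters with a mean level of 5 to 6 and -0.06 for those of 8 to 9. The interquartile range of the arrays was 2.87 and 2.81 in A347S cells, against 3.0 and 2.95 in KLF11 cells. After cyclic loess scaling the medians lay between -0.0099 and 0.0119 at all levels, so the counts of the lists are also given after that scaling. The share of clusters that were lower as deposited was 11.4% at levels of 7 to 8, 18.5% at 8 to 9 and 15.9% at 9 to 10, and 9.11%, 10.5% and 8.82% after scaling. The share that was higher at these levels was 5.02%, 4.61% and 4.31% as deposited, and 6.11%, 8.86% and 10.1% after scaling. Most of the metabolic and stress lists have mean levels in this range. Their shares of higher and lower genes are to be read against these values. Over all 18377 genes, 1153 were higher and 1304 lower after scaling. Of 37 lists, 29 had a median below 0 as deposited and 22 after it.

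**Figure D4:**
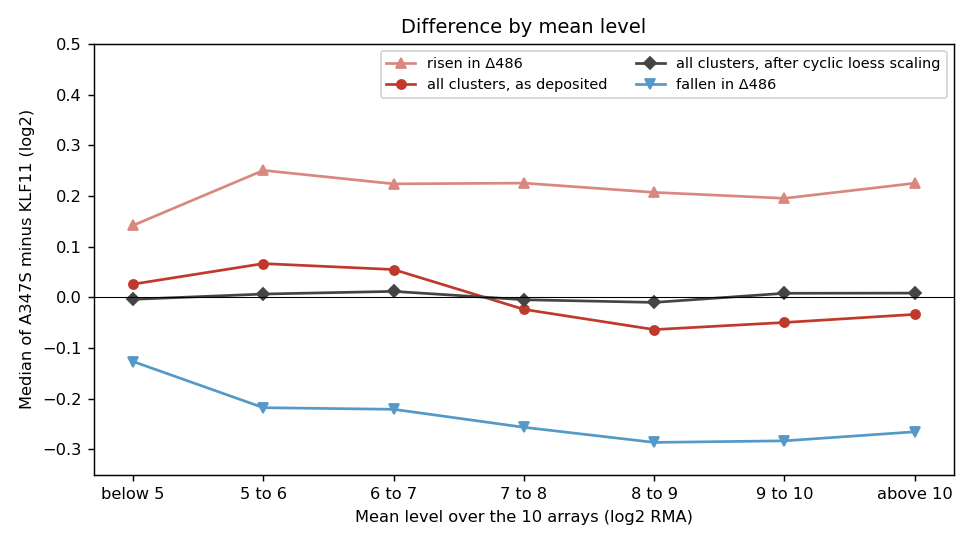
Median of A347S minus KLF11 (log2, y axis) by the mean level of clusters over all arrays (x axis), for all clusters as deposited and after cyclic loess scaling, and as deposited for clusters that rose or fell in Δ486. The curve of all clusters runs between 0.07 and -0.06 as deposited and stays near 0 after scaling, while the risen and fallen clusters keep their side at every level.

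The partners named in the study are WD40, HP1 and Sin3 proteins. Of 19 measured genes of heterotrimeric G proteins and WD40 signalling, 0 were higher and 5 lower in A347S cells, with a median of -0.12. GNB1, a β subunit, read 11.17 and 11.04 in A347S cells, against 11.33 and 11.31 in KLF11 cells, and 11.70 and 11.70 in EV cells, a difference of -0.21 (SE 0.08, unadjusted p = 0.0259). The γ subunit GNG12 differed by -0.25 (SE 0.08, unadjusted p = 0.0105), and the α subunits GNA13 and GNAI2 by -0.22 and -0.23. GNB2, picked outside the rule as the β subunit studied as a partner, read 9.20 and 9.31 in A347S cells, against 9.35 and 9.40 in KLF11 cells and differed by -0.12 (SE 0.08, unadjusted p = 0.146). After cyclic loess scaling, 1 of the 19 was lower and the median was -0.11.

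Of 12 genes for HP1 and H3K9 methyltransferases, 0 were higher and 2 lower, as after scaling, EHMT2 (G9a) at -0.32 (SE 0.09, unadjusted p = 0.00399) and SUV39H1 at -0.25 (SE 0.09, unadjusted p = 0.0157). Of 16 Sin3 and histone deacetylase genes, 1 was higher and 3 lower as deposited, but 5 were higher and 2 lower after scaling. HDAC1 differed by -0.22 (SE 0.07, unadjusted p = 0.0126), SIN3A by -0.19 (SE 0.08, unadjusted p = 0.0422) and SAP30 by 0.24 (SE 0.08, unadjusted p = 0.0103). In the Krüppel-like family, 2 of 16 genes were higher and 3 lower, and 1 and 2 after scaling. KLF6, a tumour suppressor of the family, differed by -0.33 (SE 0.09, unadjusted p = 0.00477), KLF10, the nearest relative of KLF11, by -0.24 (SE 0.08, unadjusted p = 0.0167), KLF16 by -0.25 and KLF9 by 0.19.

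In the TGF-β and BMP pathway, which KLF11 is known to serve as an early response gene, 0 of 25 genes were higher and 8 lower, with a median of -0.14. Along with TGFBR1, the signal transducers SMAD2 and SMAD3 and the ubiquitin ligase SMURF1 had the smallest p. SMAD2 read 7.85 and 7.71 in A347S cells, against 8.15 and 8.11 in KLF11 cells, and 8.85 and 8.83 in EV cells, a difference of -0.35 (SE 0.08, unadjusted p = 0.00166). SMAD3 read 9.30 and 9.11 in A347S cells, against 9.53 and 9.56 in KLF11 cells, and 10.01 and 9.97 in EV cells, a difference of -0.34 (SE 0.09, unadjusted p = 0.00443). SMURF1 differed by -0.28 (SE 0.10, unadjusted p = 0.0156). After cyclic loess scaling, 1 gene was higher and 6 lower with a median of -0.16. Among 19 mesenchymal genes 4 were lower, and 2 after scaling, with CCN1 at -0.26, CCN2 at -0.35, VIM at -0.17 and MMP2 at -0.23.

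Of 20 epithelial junction genes 0 were higher and 7 lower, as were 0 and 7 after scaling. CLDN4, a tight junction claudin, read 6.52 and 6.57 in A347S cells, against 7.07 and 7.01 in KLF11 cells, and 7.27 and 7.31 in EV cells. Its difference was -0.50 (SE 0.07, unadjusted p = 4.25e-05, adjusted p = 0.099). CTNNA1, α-catenin of the adherens junction, differed by -0.37 (SE 0.09, unadjusted p = 0.00197), TJP1 by -0.30 (SE 0.08, unadjusted p = 0.00463) and PARD6B, of the polarity complex, by -0.32 (SE 0.10, unadjusted p = 0.00774). Of 9 keratins, KRT19 alone was lower, at -0.52 (SE 0.13, unadjusted p = 0.00316), and 1 was lower after scaling.

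Lipid genes were mostly lower where they differed. In fatty acid and glycerolipid synthesis 3 of 23 genes were higher and 8 lower, with a median of -0.09, and 2 and 7 after scaling. ELOVL1 was joined by FADS2, a desaturase, at -0.31 (SE 0.07, unadjusted p = 0.00172), MID1IP1, which activates acetyl-CoA carboxylase, at -0.40 (SE 0.09, unadjusted p = 0.00178), and LPIN1, which makes diacylglycerol, at -0.34 (SE 0.09, unadjusted p = 0.00333). In sterol synthesis 0 of 20 were higher and 5 lower, and 0 and 3 after scaling. DHCR7, the last enzyme of cholesterol synthesis, read 9.91 and 9.80 in A347S cells, against 10.16 and 10.28 in KLF11 cells, and 10.81 and 10.90 in EV cells, a difference of -0.36 (SE 0.09, unadjusted p = 0.00193). In fatty acid oxidation and peroxisome genes 1 of 26 was higher and 7 lower, and 1 and 6 after scaling, with SLC25A20, the carnitine carrier, at -0.42 (SE 0.08, unadjusted p = 7e-04), ECI2 at -0.35 (SE 0.07, unadjusted p = 0.000787), HSD17B4 at -0.37 (SE 0.10, unadjusted p = 0.00364) and CPT1A, the gate of mitochondrial fatty acid entry, at -0.30 (SE 0.09, unadjusted p = 0.00607).

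In pyruvate entry and the TCA cycle 2 of 30 genes were higher and 7 lower, and 4 and 7 after scaling. Beside IDH1, PDHB, of pyruvate dehydrogenase, differed by -0.36 (SE 0.08, unadjusted p = 0.0011), ACO1 by -0.23 (SE 0.07, unadjusted p = 0.00818) and SUCLG2 by -0.26 (SE 0.08, unadjusted p = 0.0112). Glycolysis had 0 higher and 5 lower of 20, and 0 and 1 after scaling. The smallest p of that list belonged to TPI1, at -0.20 (SE 0.07, unadjusted p = 0.0171). Of 34 respiratory chain genes 1 was higher and 1 lower, and 1 and 0 after scaling. Of 26 ribosomal protein genes 0 were higher and 0 lower either way.

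Branched-chain amino acid and propionate catabolism stood on the other side, with 6 of 25 genes higher and 2 lower and a median of 0.09. After scaling 8 were higher and 2 lower, with a median of 0.13. ACADSB and ALDH6A1 led the higher genes. IVD, isovaleryl-CoA dehydrogenase of leucine breakdown, read 7.64 and 7.65 in A347S cells, against 7.96 and 8.10 in KLF11 cells, and 9.03 and 9.05 in EV cells, a difference of -0.38 (SE 0.09, unadjusted p = 0.00166). BCAT2, the mitochondrial branched-chain aminotransferase, differed by -0.39 (SE 0.09, unadjusted p = 0.00183). The medians of the list against EV were -0.18 in A347S cells and -0.41 in KLF11 cells.

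Of 23 ATF4 amino acid response genes 1 was higher and 8 lower, with PYCR1, of proline synthesis, reading 8.18 and 8.06 in A347S cells, against 8.59 and 8.59 in KLF11 cells, and 9.33 and 9.39 in EV cells, a difference of -0.47 (SE 0.07, unadjusted p = 9.59e-05, adjusted p = 0.113). SLC7A1, a cationic amino acid transporter, differed by -0.35 (SE 0.07, unadjusted p = 0.00093), and ATF3, a stress transcription factor, by 0.40 (SE 0.09, unadjusted p = 0.00144) in the other direction. Of 21 hypoxia genes 1 was higher and 8 lower, with DDIT4, ERO1A at -0.32 (SE 0.08, unadjusted p = 0.00286), EPAS1 (HIF-2α) at -0.26 (SE 0.07, unadjusted p = 0.00542) and ADM, adrenomedullin, at -0.28 (SE 0.09, unadjusted p = 0.00879). Of 27 NRF2 and glutathione genes 1 was higher and 8 lower, with KEAP1, the inhibitor of NRF2, at -0.32 (SE 0.07, unadjusted p = 0.000882), ABCC4 at -0.32 (SE 0.07, unadjusted p = 0.00164) and NQO2 at -0.31 (SE 0.08, unadjusted p = 0.00285). After scaling, 1 gene was higher in each of these 3 lists and 7, 6 and 6 were lower.

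In the insulin, PI3K and TOR list 1 of 25 was higher and 6 lower, and 2 and 5 after scaling. RHEB, the activator of mTORC1, differed by -0.28 (SE 0.07, unadjusted p = 0.00454), AKT1 by -0.24 (SE 0.07, unadjusted p = 0.00731) and DEPTOR, an mTOR inhibitor, by 0.31 (SE 0.09, unadjusted p = 0.00636). Immediate early and MAPK feedback genes had 1 of 27 higher, FOSB at 0.35 (SE 0.07, unadjusted p = 0.000597), and 6 lower, with SPRY2 at -0.31 (SE 0.08, unadjusted p = 0.0038), ERRFI1 at -0.31 (SE 0.08, unadjusted p = 0.00471) and MYC at -0.28 (SE 0.08, unadjusted p = 0.00693). After scaling 3 of these genes were higher and 4 lower. Of 15 measured monogenic diabetes genes 2 were higher and 1 lower, also in number after scaling. PDX1, a pancreatic homeobox factor, read 6.82 and 6.94 in A347S cells, against 6.56 and 6.49 in KLF11 cells, and 6.58 and 6.45 in EV cells, a difference of 0.36 (SE 0.12, unadjusted p = 0.0124). EIF2AK3 differed by 0.21 and APPL1 by -0.22. INS could not be matched to a cluster with a single symbol.

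Ciliary genes were higher more often than lower as deposited. Of 41 motile axoneme genes 10 were higher and 1 lower, with a median of 0.11, and after scaling 6 were higher and 1 lower, with a median of 0.05. This list was dim, with a mean level of 5.51. Of all clusters with a mean level of 5 to 6, 8.67% were higher and 1.77% lower as deposited, with a median of 0.07. After scaling these shares were 4.01% and 3.69%. CFAP43, an axonemal protein, read 6.56 and 6.56 in A347S cells, against 5.99 and 6.03 in KLF11 cells, and 4.17 and 4.37 in EV cells, a difference of 0.55 (SE 0.14, unadjusted p = 0.00328), and CCDC40 differed by 0.27. Of 31 intraflagellar transport and BBSome genes 5 were higher and 1 lower, and 6 and 1 after scaling, with IFT80 at 0.30 (SE 0.08, unadjusted p = 0.00485), WDR19, a WD40 repeat protein of the transport complex, at 0.39 (SE 0.10, unadjusted p = 0.00401), TTC21B at 0.28 (SE 0.08, unadjusted p = 0.00586) and IFT25 at -0.50 (SE 0.10, unadjusted p = 0.000535). The lysosome list was divided, with 6 of 27 genes higher and 6 lower, and 8 and 6 after scaling, and GM2A, the ganglioside activator, had the smallest p at -0.42 (SE 0.08, unadjusted p = 0.000513).

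Cell cycle lists varied in how many genes passed that p. DNA replication initiation had 1 of 30 genes higher, CDC6 at 0.29 (SE 0.07, unadjusted p = 0.00248), and 1 lower, ORC4 at -0.30 (SE 0.09, unadjusted p = 0.0105), against 2 and 1 after scaling. G2/M and mitosis had 2 of 32 higher (6.25%) and 4 lower (12.5%) as deposited, but 4 higher and 3 lower after scaling. Of 22 p53 targets 2 were higher (9.09%) and 3 lower (13.6%), and 1 and 2 after scaling. With intensity trend and robust moderation, 2 G2/M genes were lower and 1 p53 target higher at an adjusted p under 0.05. Over the 19 alternatives, CDC25B ran from -0.63 to -0.36 and PPM1D from 0.43 to 0.55. Of 18 telomere maintenance genes 2 were higher and 5 lower, and 3 and 2 after scaling. Interferon response genes, which can move with adenovirus, had 1 of 26 higher, SAMHD1 at 0.30 (SE 0.11, unadjusted p = 0.0248), and 4 lower, IFIT3 at -0.29 (SE 0.10, unadjusted p = 0.019) having the smallest p, against 2 and 3 after scaling.

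**Figure D5:**
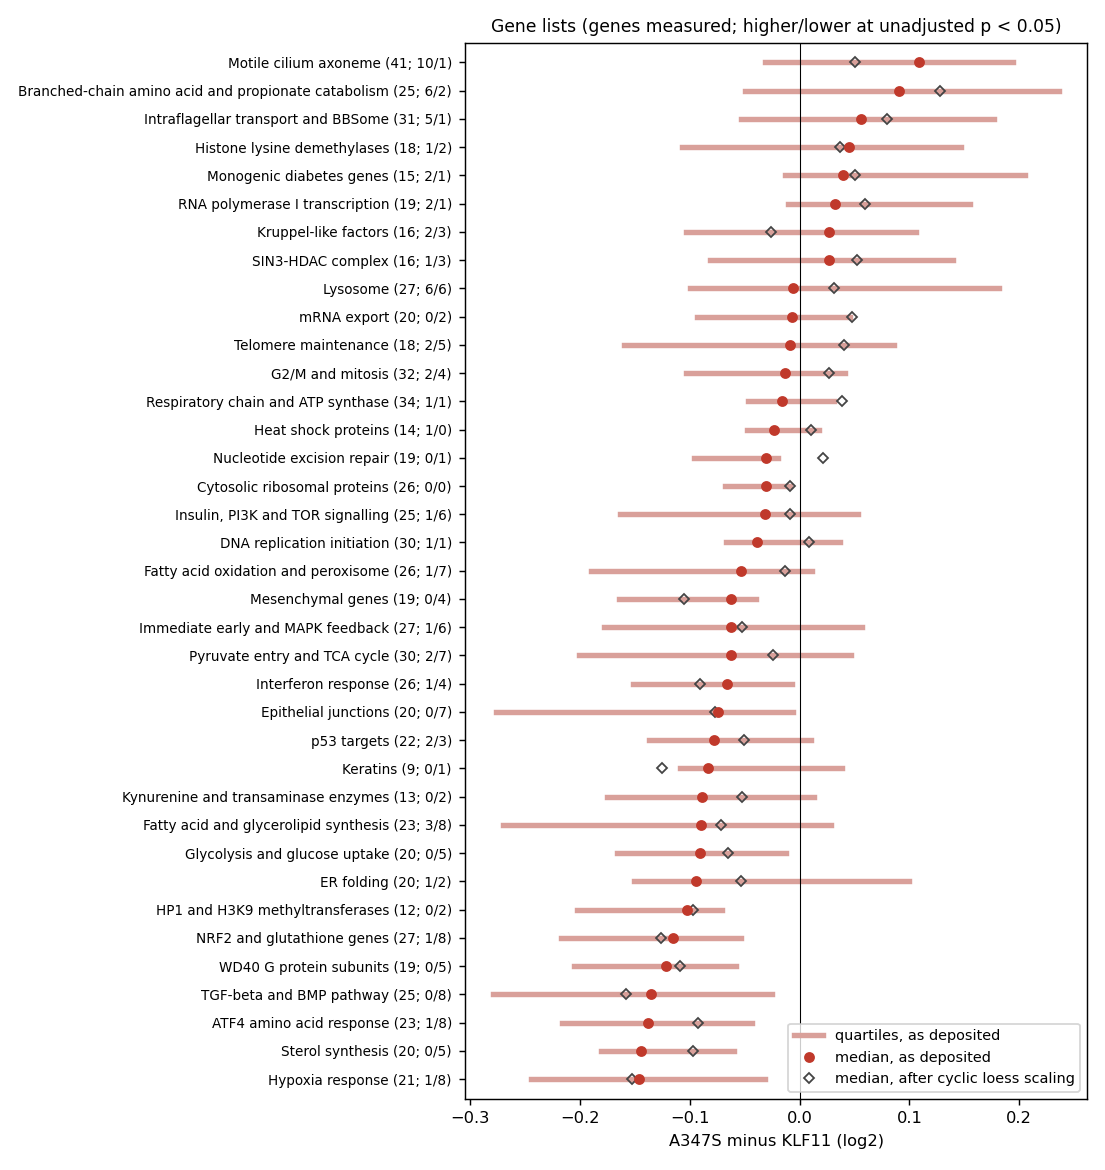
Median and quartiles of A347S minus KLF11 (log2, x axis) for each of 37 gene lists, as deposited, with the median after cyclic loess scaling. Labels give the genes measured and, after the semicolon, how many were higher and lower at an unadjusted p under 0.05, and the medians run from -0.15 for hypoxia to 0.11 for the motile axoneme.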

How the data were processed

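Panc1 cells were profiled on Affymetrix Human Gene 1.0 ST arrays, 2 per construct. The deposited log2 values were made by the authors with Robust Multiarray Analysis, and the submitters' processing notes name Partek 6.6. For the array annotation, no build is given in the sources used here. Values ran from 1.85 to 14.56. The number of arrays limits the precision. Of 28869 clusters, 7908 without a symbol were left out. Of the rest, 19229 had 1 symbol, of which 19198 matched RefSeq by gene number and 0 changed name, and 1732 had several and were never named.

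limma 3.58.1 (R 4.3.3) estimated a mean for every group from the 10 arrays together, with 5 residual and 4.54 prior degrees of freedom and Benjamini-Hochberg adjustment over all clusters tested. p-values are two-sided. Members, lists and rules were chosen with earlier results of these data known. Named genes include the 15 highest and 15 lowest differences (unadjusted p under 0.05, arrays apart, mean of at least 6). KLF11 and the 8 largest rises and falls in Δ486 were also named. Others came from genes called under an alternative, among them CXCR4 and ALDH6A1, or from the 4 smallest p of a list. For some lists fewer than 4 genes were named, and telomere maintenance is given as counts only. Lists for histone demethylases, kynurenine enzymes, ER folding and heat shock proteins appear only in the plot of list medians. So do those for nucleotide excision repair, RNA polymerase I transcription and mRNA export. Some other named genes also overlap annotated genes by their coordinates. Among them are ALDH6A1 with BBOF1, SPACA4 with FAM83E, KYAT3 with RBMXL1, DNAJB4 with FUBP1 and ATXN7L3 with TMUB2. Promoter sequences come from RefSeq (GRCh38.p14), and where a gene had several starts the outermost was used. Figures were drawn with matplotlib 3.10.9. Alternatives covered the test, the variance model, the scaling, leaving out dim clusters, adding clusters that lack a symbol, keeping 1 cluster per gene, a replicate block, thresholds and each array left out. Code was tested on simulated data. Chromatin immunoprecipitation was not analysed here.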

Additional observations from a re-analysis of the deposited data

How the results depend on the processing

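The count of called clusters, 0 as reported, was 23 with intensity trend and robust moderation, 6 without dim clusters, 9 at an adjusted p under 0.10 with no fold, and 1 with a replicate block, where the called gene was SPACA4 and not ACADSB. Replicate numbers did not pair the A347S and KLF11 arrays, since deviations of same-numbered arrays correlated at 0.0572. Over all pairs of groups this correlation ran from -0.3477 for Δ486 with EAPP to 0.1453 for KLF11 with EAPP. Leaving out 1 array gave 0 to 1 calls, ACADSB without either Δ486 array and a cluster annotated to 2 genes without either EAPP array. The cause of these differences was not tested. An ordinary t-test on the 4 arrays was also run, without the Bayes correction that the study's methods name. By it, clusters past an unadjusted p of 0.05 and 1.5-fold were 16 higher and 4 lower, against 30 and 8. Without the fold 1099 were lower. Of the Δ486 clusters, 130 risen ones were higher and 186 fallen ones lower. After adjustment 0 passed. In the limma fit, adding clusters without a symbol gave 64 higher and 26 lower at that p and fold. Without the fold, 1274 and 1743 clusters passed an unadjusted p of 0.05, and 340 and 589 one of 0.01.

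Of the 123 clusters called as raised at least 2-fold by Δ486, 77 (62.6%) were higher in A347S cells at an unadjusted p under 0.05. Their median was 0.34. Of the 62 called as lowered 2-fold, 46 (74.2%) were lower, with a median of -0.37. In the EAPP lists these counts were 8 of 23 (34.8%) and 6 of 15 (40%). Over all clusters 6.08% were higher and 8.32% lower. Without 1 array, clusters higher in A347S cells numbered 801 to 1364 and lower ones 843 to 1864, those with the 1.5-fold 30 to 56 and 8 to 48 (most without A347S replicate 1), risen Δ486 clusters that were higher 89 to 283, fallen ones that were lower 233 to 467, and their medians 0.1681 to 0.2663 and -0.3264 to -0.1974. The lowest counts at an unadjusted p under 0.05, with no fold, came without A347S replicate 2 or KLF11 replicate 2. Of 2958 differences of 156 genes under 19 alternatives, 2957 kept their direction. That of ZNF204P was 0.2464 without KLF11 replicate 1 and -0.5042 without KLF11 replicate 2. With 2 arrays of 1 RNA pool per group, differences between cultures are not measured.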
